A study of Mus musculus with 4 samples.

Results

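The genes described here are 37 genes of DNA replication and S phase entry, out of 24422 named mouse genes in the deposited tables. They were taken by name from their known roles, but with earlier results of these data known. All 37 were matched, and all 37 passed the filter on low counts in the comparison of RAW 264.7 cells, a mouse macrophage line, carrying Dnm3os with the same cells carrying an empty plasmid. The empty vector group held 2 poly(A) RNA libraries of cells stably transfected with pcDNA 3.1(+) alone, and the Dnm3os group held 2 libraries of cells that stably expressed the long noncoding RNA Dnm3os. Cells of both groups were used at passages 3 to 6, and their medium held glucose at 5.5 mmol/L. The labels do not say whether a line is 1 clone or whether each library had its own culture, so p-values measure only the spread between these libraries, which may be technical.

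Summed read counts over 1 transcript per gene were 29329201 to 39640782 per library. Dnm3os itself had 0 counts in both empty vector libraries, and 208 and 260 where it was introduced. Of 10 macrophage markers all but Mertk, with 0 or 1 count, were well expressed, and their summed level was 9837 to 9990 CPM (read counts scaled to the size of the library, not to gene length) in the empty vector and 10731 to 11216 CPM in the Dnm3os libraries. Of 12 markers of other cell types 6 were at 0 in all 4 libraries (among them Cd3e, Epcam and Alb), and the 12 summed to 6.21 and 6.25 CPM in the empty vector against 7.67 and 7.14 CPM in the Dnm3os libraries. The macrophage sum is mostly Lyz2, and the 9 markers tested went both ways: Itgam (101%), Fcgr1 (67.7%), Csf1r (20.5%) and Lyz2 (11.3%) rose, and Adgre1 (-19.0%) and Cd68 (-7.15%) fell at an adjusted p under 0.05 by edgeR. The part of these markers in the results was not tested, and in such bulk RNA fewer cells in S phase and less RNA per cell cannot be told apart.

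Before a cell copies its DNA, the proteins Cdc6 and Cdt1 load the ring of MCM helicase subunits onto replication origins in G1, and geminin, the product of Gmnn, blocks Cdt1 once S phase has begun. Cdc45 and the GINS proteins turn the loaded ring into an active helicase, primase and the replicative polymerases copy the strands behind it, and the sliding clamp PCNA, placed by the RFC loader, holds the polymerases on the template. Transcription of most of these genes is switched on at the border of G1 and S phase by E2F factors, which are held back by the retinoblastoma family until cyclin and kinase activity releases them. In macrophages these genes mark proliferation, and RAW 264.7 is a transformed line that divides in culture.

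In cells carrying Dnm3os the replication genes were close to their level in cells carrying the empty vector. Of the 37 genes, 3 fell and 0 rose at a Benjamini-Hochberg adjusted p under 0.05 over 13136 tested genes (edgeR, quasi-likelihood F test), and 34 did not pass. The 3 were Pole, Pcna and E2f1, with changes of -10.1%, -6.59% and -8.80%. They make up 8.11% of the replication genes, while 5.77% of all genes tested were called lower, 6.48% higher and 12.2% in either direction. Among the 5863 genes with a CPM at or above that of the lowest replication gene, 7.98% were called lower, 7.16% higher and 15.1% in either direction, so the share of replication genes called is near the background. For the 0 called higher, edgeR before adjustment had 1 gene (Rrm2) higher with p below 0.05, while DESeq2 called 0 and limma-voom called 0. With a library left out the genes called lower were 0 (empty vector library 2) or 1 (Pole for empty vector library 1 and for Dnm3os library 1, E2f1 for Dnm3os library 2).

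The fold changes of the replication genes were small in these libraries. Their median log2 fold change was -0.03, beside 0.00 over all genes tested, and the values ran from -0.15 (Pole) to 0.09 (Rrm2). The median absolute log2 fold change was 0.04, against 0.08 over all genes tested and 0.05 over the 5863 genes at or above that CPM. Each library held 986 to 20325 counts of each replication gene, and the standard errors of the log2 fold changes were 0.03 to 0.06. The 95% interval that reached furthest from 0 was that of Pole, to -0.233 on the log2 scale, a 1.18-fold difference, and 27 intervals lay wholly within a 10% change. These intervals are for single genes and are not widened for their number. They rest on the spread between 2 libraries per group, which may be technical. edgeR draws the variance of each gene towards that of other genes, so an interval does not follow the spread of its own gene alone. Leaving out a library moved some genes by more than their standard error: E2f1 was at -0.08 without Dnm3os library 1 and at -0.19 without Dnm3os library 2. In all, 27.6% of the genes tested, and 10.8% of those at or above that CPM, had a larger absolute fold change than Pole.

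**Figure D1:**
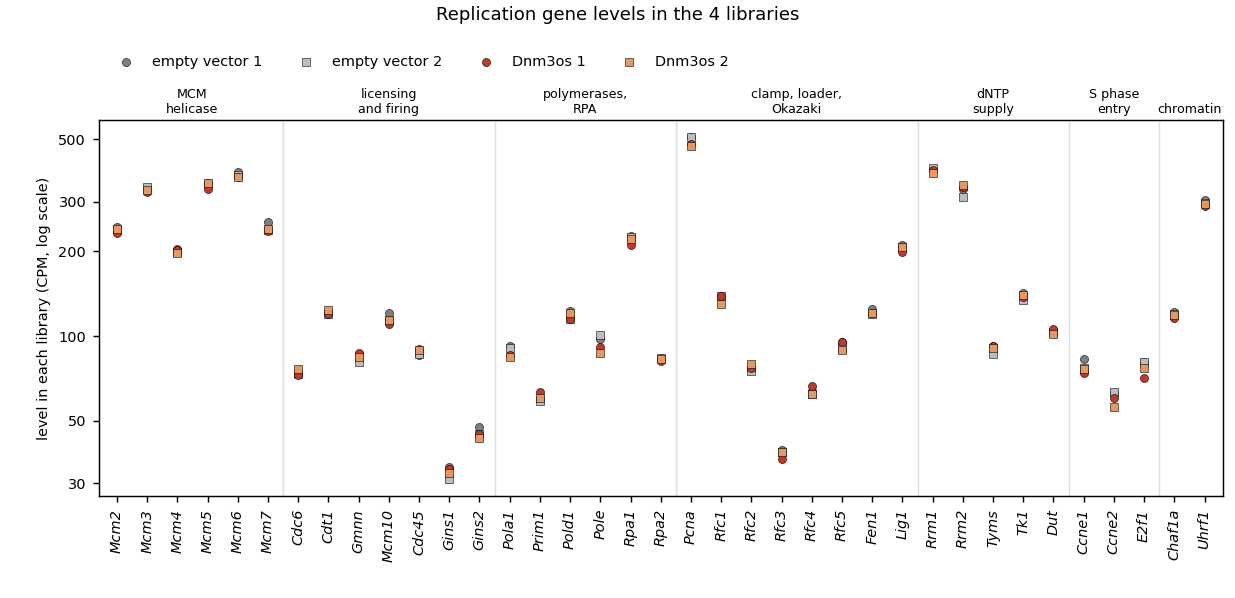
Level of each of the 37 replication genes (CPM, log axis) in the 2 empty vector libraries (grey) and the 2 Dnm3os libraries (red and orange), with genes ordered by role. The 4 points of a gene lie almost on one another, and levels run from 32.9 CPM (Gins1, mean of the 4 libraries) to 494 CPM (Pcna).

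The sequence around the start sites was searched for letters bound by E2F and NF-Y factors. RefSeq promoter sequences (250 bases before to 50 after the start, build GRCm38.p6) were at hand for 30 of the 37 genes. They were searched on both strands for 4 spellings of the E2F site, TTTCCCGC, TTTGGCGC, TTTCGCGC and TTTGCCGC, and for CCAAT, the box bound by NF-Y. At least 1 E2F spelling was found, in any window of the gene, for 11 of the 30 genes (36.7%). The share was 4.75% of 10100 tested genes and 2.60% of all 27025 genes with a promoter entry. CCAAT was found for 18 of the 30 (60.0%), against 43.8% of the tested genes. In 23 of the 30 genes the start site of a window lay within 100 bases of the GENCODE M21 start of the counted transcript. This limit was set after the data were seen. Of these 23, 8 (34.8%) held an E2F spelling, against 4.23% of 8462 tested genes under the same limit, and 14 (60.9%) held CCAAT, against 40.5%. The 8 genes were Cdt1, Lig1, Mcm3, Mcm5, Mcm6, Pola1, Pold1 and Rfc3, so most of the 23 held no such spelling under this limit. Cdc6, Mcm7 and Uhrf1 make up the rest of the 11. They held a spelling only in windows whose start sites lay 350, 539 and 992 bases downstream of the counted start. The other 7 genes were Cdc6, Dut, E2f1, Mcm7, Mcm10, Pcna and Rfc1, and their windows enter only the shares over the 30 genes. For E2f1 the start site within the window lies 466 bases, and for Pcna 134 bases, downstream of the counted start. The 250 bases before the start are shown 5′ to 3′ for Mcm6, Mcm5 and Pola1, as examples of genes that hold the spellings. Capitals mark E2F spellings and CCAAT boxes on either strand.
Mcm6 (chr1:128359706-128359955, minus strand): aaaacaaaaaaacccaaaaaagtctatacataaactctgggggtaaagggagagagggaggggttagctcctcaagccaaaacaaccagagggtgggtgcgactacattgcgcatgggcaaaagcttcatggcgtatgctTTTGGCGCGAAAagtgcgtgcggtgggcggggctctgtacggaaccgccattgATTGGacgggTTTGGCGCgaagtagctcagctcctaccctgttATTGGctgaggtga
Mcm5 (chr8:75109259-75109508, plus strand): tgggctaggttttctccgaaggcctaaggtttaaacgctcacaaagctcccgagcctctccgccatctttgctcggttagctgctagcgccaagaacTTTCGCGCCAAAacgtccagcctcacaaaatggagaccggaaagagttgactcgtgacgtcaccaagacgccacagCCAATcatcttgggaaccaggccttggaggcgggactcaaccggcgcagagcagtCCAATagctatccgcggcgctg
Pola1 (chrX:93632156-93632405, minus strand): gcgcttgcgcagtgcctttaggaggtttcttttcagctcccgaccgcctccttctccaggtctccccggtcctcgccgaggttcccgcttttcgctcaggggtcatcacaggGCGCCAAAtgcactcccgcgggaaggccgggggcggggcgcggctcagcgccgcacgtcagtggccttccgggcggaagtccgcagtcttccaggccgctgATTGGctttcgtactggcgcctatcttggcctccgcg
In Mcm6 the first run, TTTGGCGCGAAA, lies 110 to 99 bases before the start and is a match on each strand that overlap, and a further match lies 47 to 40 bases before the start. In Mcm5 the run TTTCGCGCCAAA, 153 to 142 bases before the start, is again a pair of overlapping matches, and Pola1 has 1 match on the opposite strand, GCGCCAAA, 138 to 131 bases before the start. A match is a run of letters and not a tested binding site, and none found says only that these letters are not in this window. Such sequences are not given for Pole, Gmnn, Gins1, Gins2, Rfc2, Ccne2 and Mcm4.

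The 6 subunits of the MCM helicase, Mcm2 to Mcm7, which form the ring that unwinds the DNA at the fork, all had log2 fold changes just below 0, from -0.06 (Mcm7) to -0.01 (Mcm4), and 0 of 6 passed the test (0 at an unadjusted p under 0.05 by edgeR; 0 by DESeq2 and 0 by limma-voom). Mcm6, whose promoter is shown above, stood at 384 and 375 CPM in empty vector libraries 1 and 2 and at 367 and 368 CPM in Dnm3os libraries 1 and 2. Both Dnm3os values lay below both empty vector values, but the 95% interval of the difference spanned 0 (log2 fold change -0.05 ± 0.03 SE; adjusted p = 0.420 by edgeR). Mcm7 was at 255 and 239 CPM with the empty vector and at 236 and 240 CPM with Dnm3os. Here empty vector library 1 stood above the other 3 libraries and the groups overlapped (adjusted p = 0.368 by edgeR). Mcm5 was at 351 and 347 CPM against 335 and 349 CPM, Mcm3 at 336 and 339 against 324 and 332 CPM, Mcm2 at 244 and 239 against 233 and 240 CPM, and Mcm4 at 205 and 199 against 203 and 198 CPM.

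The level of each MCM subunit per transcript length was also compared, since the ring holds 1 copy of each. Divided by the length of the matching GENCODE M21 transcript (2910 to 3589 bases), the level was highest for Mcm6, at 130.3 ± 2.26 CPM per kb with the empty vector and 126.3 ± 0.197 with Dnm3os (SD, n = 2), and lowest for Mcm4, at 56.2 ± 1.20 and 55.8 ± 0.936 CPM per kb. The order of the level per kb was Mcm6, Mcm3, Mcm5, Mcm7, Mcm2, Mcm4 in each of the 4 libraries, and the highest was 2.23 to 2.33 times the lowest. The lengths are those of another annotation than the unnamed one behind the counts. A second Mcm6 transcript, of 4355 bases against 2910 for the one kept, had nearly the same counts (15077, 13022, 10620 and 12426). The place of Mcm6 in the order, and the ratio of highest to lowest, thus depend on which of its transcripts is kept.

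**Figure D2:**
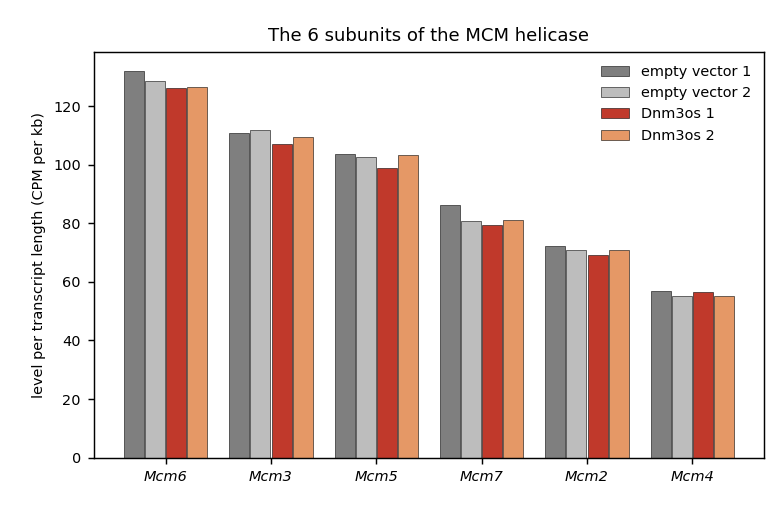
Level per transcript length (CPM per kb) of the 6 MCM helicase subunits, 1 bar per library. With the lengths of the transcripts kept, the subunits keep 1 order in all 4 libraries. The bars of a subunit differ far less than the subunits do.

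Of the 7 genes that license and fire origins, 0 passed the test, and their log2 fold changes ran from -0.06 to 0.05 (0 at an unadjusted p under 0.05 by edgeR; 0 by DESeq2 and 0 by limma-voom). Cdt1, the loader of the helicase, was at 123 and 119.9 CPM with the empty vector and at 119.7 and 124 CPM with Dnm3os, so the groups overlapped fully (log2 fold change 0.01 ± 0.03 SE; adjusted p = 0.953 by edgeR); its sign turned without empty vector library 2 (-0.01) and without Dnm3os library 2 (-0.02). Its inhibitor Gmnn was at 86.1 and 81.1 against 87.3 and 84.7 CPM (0.04 ± 0.04), and its partner Cdc6 at 73.8 and 73.3 against 72.7 and 76.6 CPM (0.02 ± 0.04). Mcm10, which joins the helicase to the polymerase machinery, had the lowest value of this group at 121 and 114 against 110.0 and 114 CPM (-0.06 ± 0.04; adjusted p = 0.323 by edgeR). The helicase activators had 0.05 ± 0.04 (Cdc45), 0.02 ± 0.06 (Gins1) and -0.06 ± 0.05 (Gins2). Gins1 had the fewest counts of the 37, 986 to 1367 per library, and the widest error.

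Pole, the catalytic subunit of DNA polymerase epsilon, which copies the leading strand, had the largest difference of the 37. It was at 97.6 and 101 CPM (3879 and 3551 counts) with the empty vector and at 91.6 and 86.9 CPM (2688 and 2969 counts) with Dnm3os. Both Dnm3os libraries lay below both empty vector libraries, and the gap between the nearest libraries of the groups was wider than that within either group. Pole fell by 0.15 ± 0.04 on the log2 scale (SE; group means 99.2 ± 2.30 and 89.3 ± 3.37 CPM, SD, n = 2; adjusted p = 0.00909 by edgeR). DESeq2 did not call it (adjusted p = 0.110), nor did edgeR once empty vector library 2 (adjusted p = 0.0503) or Dnm3os library 2 (adjusted p = 0.201) was left out.

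The other polymerase subunits were nearer to equal. Pola1, the catalytic subunit of the polymerase that starts each strand, was at 91.99 and 90.6 against 85.4 and 84.1 CPM; the groups did not overlap, and it missed the threshold at adjusted p = 0.0607 by edgeR (-0.11 ± 0.04), passing it where genes of low count were kept (adjusted p = 0.0324 by edgeR). Its primase partner Prim1 had 0.04 ± 0.04, and Pold1, the catalytic subunit of polymerase delta on the lagging strand, -0.02 ± 0.04. Rpa1, the large subunit of the protein that coats single-stranded DNA, was at 226 and 224 against 212 and 221 CPM (-0.06 ± 0.03; adjusted p = 0.280 by edgeR), and Rpa2, its middle subunit, had -0.02 ± 0.04.

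Pcna, the sliding clamp and the gene with the most counts of the 37, was at 511 CPM in both empty vector libraries (20325 and 17996 counts) and at 481 and 474 CPM in the Dnm3os libraries (14096 and 16214 counts). The libraries of each group were close together and the groups were apart. Pcna fell by 0.10 ± 0.03 on the log2 scale (SE; group means 511 ± 0.214 and 477 ± 4.32 CPM, SD, n = 2; adjusted p = 0.0235 by edgeR). Its fold change was -0.09 to -0.11 under all 12 alternatives, but the call was lost with each library left out in turn: by edgeR the adjusted p was 0.0926 and 0.0634 with empty vector library 1 or 2 removed, and 0.103 and 0.197 with Dnm3os library 1 or 2 removed. With isoforms summed it was 0.0605 by edgeR. DESeq2 and limma-voom both called it.

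The clamp loader and the enzymes that finish Okazaki fragments did not pass the test (7 of 7 genes). Of the loader subunits, Rfc2 was at 75.8 and 75.4 CPM with the empty vector and at 76.8 and 79.97 CPM with Dnm3os (0.05 ± 0.04; adjusted p = 0.487 by edgeR), and Rfc1 (-0.04), Rfc3 (-0.05), Rfc4 (0.03) and Rfc5 (-0.01) lay on both sides of 0. Lig1, the ligase that seals the fragments, was at 211 and 207 against 198 and 208 CPM, and Fen1, the nuclease that trims their flaps, had -0.02 ± 0.03. In Lig1 the second Dnm3os library lay between the empty vector libraries.

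Of the genes of deoxynucleotide supply, 4 of 5 had log2 fold changes above 0, and 0 passed (1 higher and 0 lower at an unadjusted p under 0.05 by edgeR; 0 by DESeq2 and 0 by limma-voom). Rrm2, the small subunit of ribonucleotide reductase that limits the enzyme in S phase, was at 333 and 311 CPM with the empty vector and at 340 and 345 CPM with Dnm3os. The groups did not overlap, but the empty vector libraries differed by more from each other than the first of them did from the Dnm3os libraries. Its log2 fold change of 0.09 ± 0.03 had adjusted p = 0.0969 by edgeR, and among the 12 alternatives it passed only without empty vector library 1 (log2 fold change 0.13; adjusted p = 0.0281 by edgeR). Without empty vector library 2 its log2 fold change was 0.04 (adjusted p = 0.659 by edgeR). Rrm1, the large subunit, was at 388 and 395 against 390 and 381 CPM (-0.02 ± 0.03). Per kb of transcript, Rrm2 stood at 147 ± 6.93 and Rrm1 at 97.9 ± 1.17 CPM per kb with the empty vector (SD, n = 2), and at 156 ± 1.56 and 96.5 ± 1.66 with Dnm3os. The thymidylate enzymes Tyms (0.04 ± 0.04) and Tk1 (0.00 ± 0.03) and the dUTP-cleaving Dut (0.01 ± 0.04) had values near 0.

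The genes of S phase entry had the lowest median of the roles, -0.12. E2f1 is an E2F factor that drives transcription of replication genes. It was at 81.3 and 80.9 CPM (3230 and 2850 counts) with the empty vector and at 70.9 and 76.8 CPM (2080 and 2626 counts) with Dnm3os. The empty vector libraries were nearly equal, while the Dnm3os libraries were both lower and further from each other. E2f1 fell by 0.13 ± 0.04 on the log2 scale (SE; group means 81.1 ± 0.232 and 73.9 ± 4.19 CPM, SD, n = 2; adjusted p = 0.0403 by edgeR). Without Dnm3os library 1 the difference was -0.08 (adjusted p = 0.422 by edgeR) and without Dnm3os library 2 it was -0.19, where it passed (adjusted p = 0.0355 by edgeR). E2f1 missed the threshold with empty vector library 1 or 2 removed (adjusted p = 0.0567 and 0.0647 by edgeR), by DESeq2 (adjusted p = 0.306) and by limma-voom (adjusted p = 0.0831). Cyclins E1 and E2, which activate the kinase Cdk2 at the start of S phase, did not pass. Ccne1 was at 82.7 and 76.9 against 73.9 and 76.4 CPM (-0.09 ± 0.04; adjusted p = 0.217 by edgeR), and Ccne2 at 62.7 and 63.5 against 60.4 and 56.0 CPM (-0.12 ± 0.05; adjusted p = 0.102 by edgeR). Single libraries moved both: Ccne1 was at -0.04 without empty vector library 1 and at -0.14 without empty vector library 2, and Ccne2 at -0.06 without Dnm3os library 2.

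The 2 genes of chromatin behind the fork did not pass either. Chaf1a, the large subunit of the histone chaperone CAF-1, was at 122 and 120.4 CPM with the empty vector and at 116 and 119.1 CPM with Dnm3os (-0.04 ± 0.03; adjusted p = 0.525 by edgeR). Uhrf1, which brings the maintenance DNA methyltransferase to newly copied DNA, was at 305 and 297 against 291 and 296 CPM (-0.04 ± 0.03; adjusted p = 0.527 by edgeR). In both genes the groups were separate by a narrow gap.

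**Figure D3:**
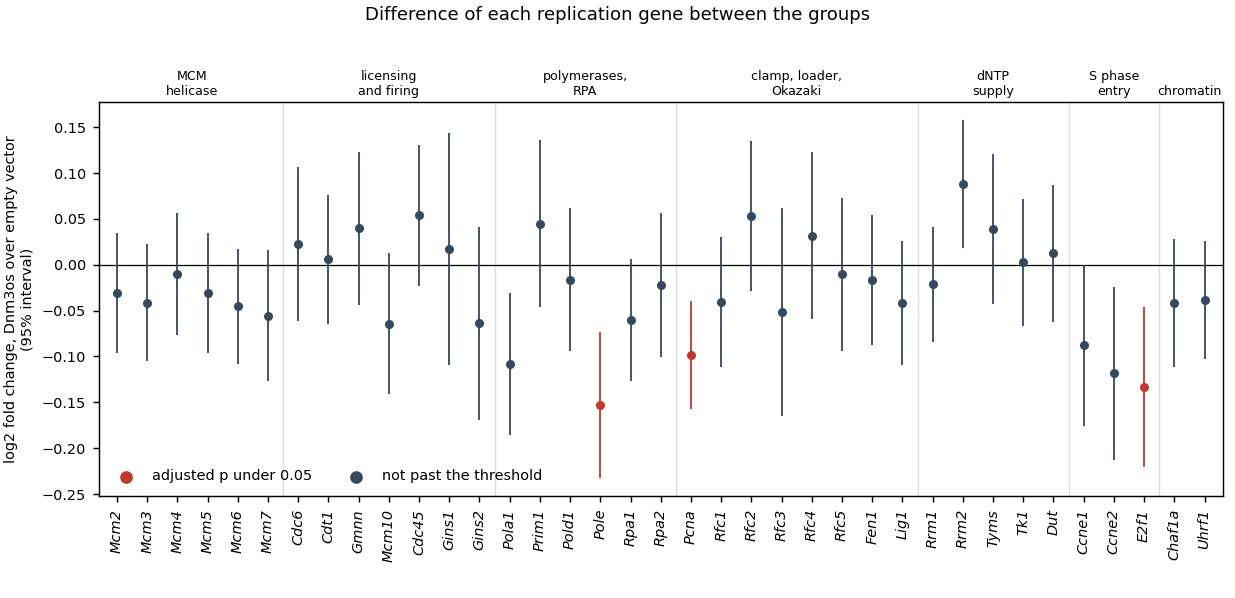
Log2 fold change of each replication gene, Dnm3os over empty vector, with its 95% interval from the edgeR fit; red marks an adjusted p under 0.05. Pole, Pcna and E2f1 are the 3 called genes, and the interval of Pole reaches furthest from 0, to -0.233.

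The direction of the 37 genes was uneven, and their differences between libraries of 1 group were of like size. Of the 37, 25 (67.6%) had a log2 fold change below 0, against 49.8% of all genes tested. The groups did not overlap for 17 of the 37 (45.9%), of which 14 were lower (37.8% of the 37) and 3 higher. Over all genes tested the share was 51.2% (25.0% lower, 26.2% higher). Among the genes at or above the lowest replication gene in CPM the share was 56.4% (28.5% lower, 27.9% higher). The summed level of the 37 genes was 5999 and 5875 CPM in empty vector libraries 1 and 2 and 5796 and 5833 CPM in Dnm3os libraries 1 and 2. The empty vector libraries thus lay further from each other than the lower of them did from either Dnm3os library. Between the empty vector libraries, 29 of the 37 genes were higher in library 1 (78.4%, against 49.6% of all genes tested), and the median absolute log2 difference was 0.03. Between the Dnm3os libraries, 17 of the 37 were higher in library 1, and the median absolute log2 difference was 0.04, the size of that between the groups. The difference between the groups is of means of 2 libraries, which vary less than single libraries, so these sizes are not on 1 scale.

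**Figure D4:**
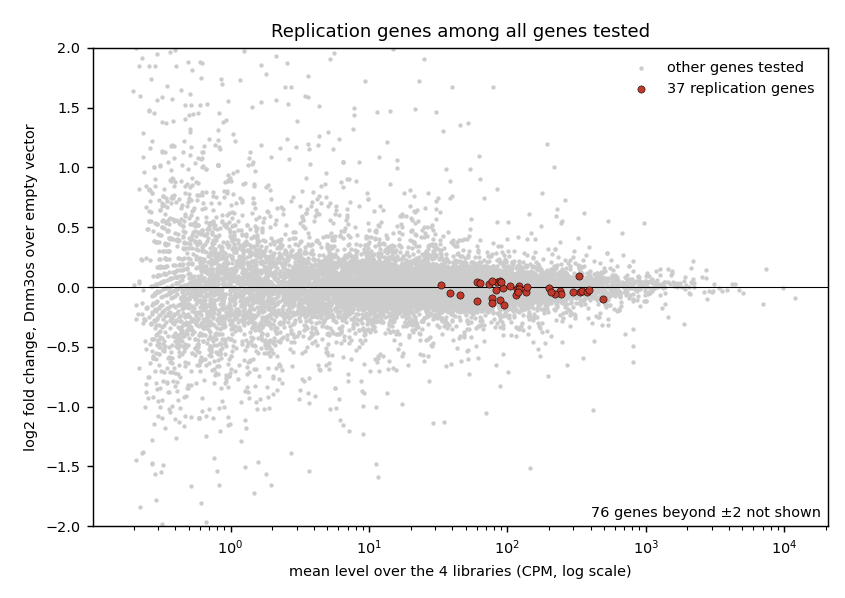
Log2 fold change against mean level (CPM, log axis) of the 13136 genes tested (grey), with the 37 replication genes in red; 76 genes beyond 2 on the log2 scale are outside the axis. The replication genes lie in the narrow middle of the cloud at their abundance.

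Other genes of the cell cycle were followed in 5 further lists. Of 41 other replication factors, 2 rose and 1 fell (7.32% called, beside 12.2% of all genes tested, with a median log2 fold change of -0.02). DESeq2 called 0 of them higher and 1 lower, and limma-voom called 1 higher and 1 lower. Donson, a factor of helicase assembly and fork stability, rose from 27.1 ± 0.845 to 32.6 ± 1.72 CPM (0.27 ± 0.06; adjusted p = 0.00419 by edgeR; 0.118 with Dnm3os library 2 removed). Dna2, a nuclease of Okazaki fragments, rose by less (0.12 ± 0.04; adjusted p = 0.0439 by edgeR) and lost its call with each library left out in turn, at adjusted p of 0.0587 to 0.313 by edgeR. Dnmt1, the maintenance DNA methyltransferase, fell from 367 ± 11.5 to 338 ± 5.12 CPM (-0.12 ± 0.03; adjusted p = 0.0160 by edgeR), but missed the threshold with empty vector library 2 removed (adjusted p = 0.178 by edgeR) and with Dnm3os library 1 or 2 removed (0.183 and 0.0897). Of 26 genes of nucleotide synthesis, 1 rose and 1 fell (7.69% called, median 0.01). DESeq2, limma-voom and edgeR with isoforms summed each called 1 higher and 0 lower. Shmt2, the mitochondrial enzyme that feeds serine into folate metabolism, rose, with 429 and 436 CPM against 486 and 508 CPM (0.20 ± 0.03; adjusted p = 4.77e-05 by edgeR), under all 12 alternatives. Adss, which makes adenylosuccinate, fell (-0.12 ± 0.03; adjusted p = 0.0209 by edgeR), and missed the threshold with empty vector library 1 removed (0.265) and with Dnm3os library 1 or 2 removed (0.0540 and 0.262).

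Among 29 tested genes of G1 to S control, 1 rose and 3 fell, and 25 did not pass (13.8% called, beside 12.2% of all genes tested; median -0.02). DESeq2 and limma-voom each called 1 of them lower. Ccnd2, cyclin D2, which activates the kinases Cdk4 and Cdk6 in G1, was 34.4 ± 1.32 CPM with the empty vector and 19.97 ± 0.564 with Dnm3os, and fell by 0.78 ± 0.06 on the log2 scale (SD and n = 2 for the levels; adjusted p = 2.96e-09 by edgeR). Its libraries stood at 33.5 and 35.4 against 19.6 and 20.4 CPM, far apart beside the spread within each group. Myc, a growth-promoting transcription factor, rose from 62.3 ± 3.61 to 72.8 ± 1.80 CPM (0.22 ± 0.04; adjusted p = 0.00132 by edgeR). Both kept their call under all 12 alternatives. The E2F partner Tfdp2 (-0.28 ± 0.09; adjusted p = 0.0369 by edgeR) and Cdk6 itself (-0.10 ± 0.03; adjusted p = 0.0463 by edgeR) also fell. Tfdp2 missed the threshold with empty vector library 2 (0.220) or with Dnm3os library 1 (0.175) or 2 (0.181) removed, and Cdk6 did so for each of the 4 libraries removed in turn (adjusted p of 0.0550 to 0.227 by edgeR). The kinase inhibitor genes Cdkn1c, Cdkn2a and Cdkn2b had 0 counts in all 4 libraries.

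Of 36 genes of G2 and mitosis, 5 fell and 0 rose (median -0.03). The share called was 13.9%, all lower, while of all genes tested 5.77% were called lower and 12.2% in either direction. Among the 5863 genes at or above the CPM of the lowest replication gene, 7.98% were called lower. For the 0, edgeR before adjustment had 3 higher with p below 0.05, DESeq2 called 0 and limma-voom 0. DESeq2 called 3 lower and limma-voom 4. Cdc25b, a phosphatase that activates the mitotic kinase, fell from 106.4 ± 0.783 to 93.0 ± 2.86 CPM (-0.20 ± 0.04; adjusted p = 0.000603 by edgeR), under all 12 alternatives. Top2a, the topoisomerase that untangles sister chromatids, fell from 582 ± 3.34 to 524 ± 10.9 CPM (-0.15 ± 0.03; adjusted p = 0.000656 by edgeR; 0.0532 with Dnm3os library 2 removed). The proliferation marker Mki67 fell from 462 ± 7.22 to 428 ± 5.69 CPM (-0.11 ± 0.03; adjusted p = 0.0149 by edgeR), a call that needed empty vector library 1 (0.126 with it removed), Dnm3os library 1 (0.0648) and Dnm3os library 2 (0.180). Anln, an actin-binding protein of cell division, fell (-0.11 ± 0.03; adjusted p = 0.0258 by edgeR), a call that needed empty vector libraries 1 and 2 (0.0650 and 0.0677 with each removed) and Dnm3os library 2 (0.273). The summed level of the 36 genes was 5615 and 5566 CPM with the empty vector and 5446 and 5416 CPM with Dnm3os.

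Of 24 tested genes of the p53 response and the checkpoint, 2 rose and 6 fell (33.3% called, beside 12.2% of all genes tested; median 0.01). DESeq2 called 0 higher and 1 lower. Mdm2, which marks p53 for destruction and is itself a p53 target, fell from 175 ± 4.95 to 157 ± 0.550 CPM (-0.16 ± 0.03; adjusted p = 0.00124 by edgeR), under all 12 alternatives. Atr, the kinase that responds to stalled forks, fell from 75.7 ± 1.82 to 67.3 ± 3.81 CPM (-0.17 ± 0.04; adjusted p = 0.0104 by edgeR; 0.262 with Dnm3os library 2 removed). Btg2, an antiproliferative p53 target, rose from 2.77 ± 0.385 to 4.38 ± 0.0268 CPM (0.65 ± 0.15; adjusted p = 0.00450 by edgeR; 0.0667 with Dnm3os library 2 removed). Trp53inp1, a p53-induced gene, fell (-0.68 ± 0.19; adjusted p = 0.0216 by edgeR), a call lost with empty vector library 2 (0.0871) or the second Dnm3os library (0.255) removed. Differences between these lists and the 37 genes were not tested.

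**Figure D5:**
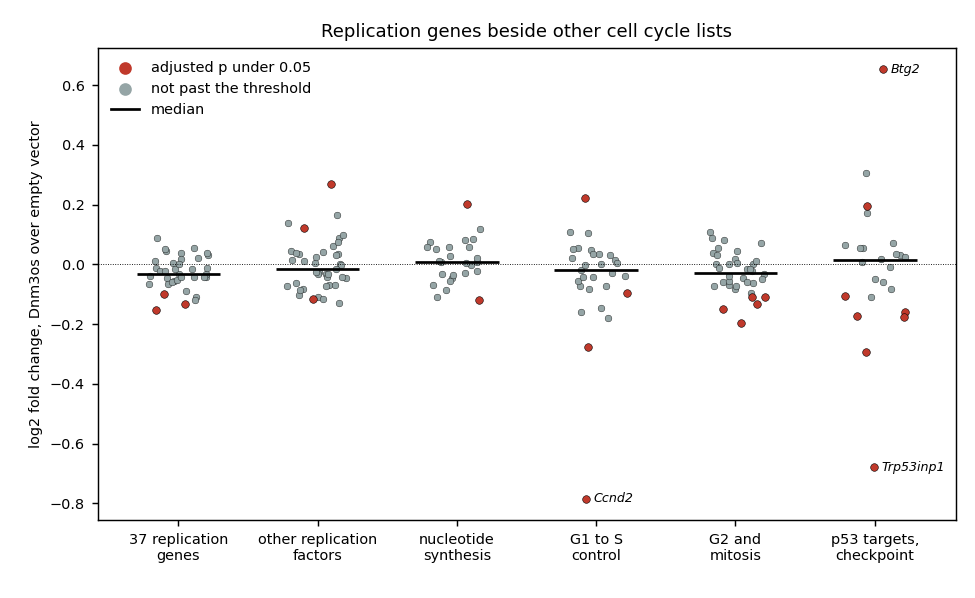
Log2 fold change, Dnm3os over empty vector, of the 37 replication genes and of 5 further cell cycle lists; each point is a gene, red where its adjusted p is under 0.05, and bars are medians. The medians lie between -0.03 and 0.01, and only Ccnd2, Btg2 and Trp53inp1 lie beyond 0.5 on the log2 scale among these lists.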

How the data were processed

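Poly(A) RNA was measured in 4 libraries, 2 per group. The submitters' processing notes name TopHat, Bowtie2, DESeq2 and mm9, with no versions or roles; which counter, annotation or strand setting was used is not given in the sources used here. Per the file headers, the authors deposited raw read counts for 35786 RefSeq transcripts and a normalized column, a scaled signal equal to the deposited count times 1 constant per library (0.8653 to 1.1723); only the counts were used. Symbols came from RefSeq (35499) and GENCODE (178) tables; 109 unnamed transcripts (0.246 to 0.276% of counts) were left out, and each gene was represented by its transcript of highest mean count. Genes passing filterByExpr were scaled by TMM (factors 0.9971 to 1.0031) and tested in edgeR 4.0.16 (R 4.3.3; glmQLFit with robust set, glmQLFTest), tested on simulated data first. SE was taken as the size of the log2 fold change divided by the root of its F statistic, and 95% intervals as SE times the t quantile. The t quantile used the total degrees of freedom of the edgeR fit, in which the variance of a gene borrows from other genes. The 12 alternatives were DESeq2 size factors, total counts, DESeq2 1.42.0, limma-voom (limma 3.58.1), no filter, 1 CPM in 2 libraries, isoforms summed, each library left out, and a replicate block; a limit on promoter windows was added after seeing the data. A fit without a library assumes that the lone library varies like the others. Members and lists were chosen with earlier results of these data known. Named were all 37 members (every library for those called and, per role, the largest difference and the most abundant), and up to 4 called genes per further list; other members were given by library after their values were seen. Libraries of a group differed by more than sampling noise (chi-square per degree of freedom 5.91 and 4.79).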

Additional observations from a re-analysis of the deposited data

How the results depend on the processing

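The median log2 fold change of the 37 replication genes, -0.0305, ran from -0.0449 (without empty vector library 2) to -0.0194 (without Dnm3os library 1) over the 12 alternatives, and DESeq2 size factors, total counts and the 1 CPM filter gave the same 3 calls (Pole, Pcna and E2f1). The replication genes called lower numbered 3, against 1 by DESeq2 and 0 to 1 with a library left out; called higher were 0, and 0 to 1 with a library left out. Of all genes tested, 851 were higher and 758 lower, against 385 and 338 by DESeq2, and 434 to 802 and 372 to 784 with a library left out. DESeq2 called 0 other replication factors higher, 0 nucleotide genes lower, 1 G1 to S gene lower, 3 mitosis genes lower, and 0 higher and 1 lower in the p53 list. Limma-voom called 1 other replication factor higher, 0 nucleotide genes lower, 1 G1 to S gene lower and 1 p53 gene higher. With isoforms summed the counts were 1 other replication factor higher, 0 nucleotide genes lower, 3 mitosis genes lower, and 1 higher and 3 lower in the p53 list, where DESeq2 size factors gave 1 higher. With a library left out, ranges were 0 to 2 higher and 0 to 1 lower (other replication factors), 1 to 2 and 0 to 1 (nucleotide genes), 1 to 1 and 1 to 2 (G1 to S), 0 to 1 and 1 to 3 (mitosis) and 0 to 3 and 1 to 5 (p53 list). Cdt1, at 0.01, ranged from -0.019 to 0.0275 with a library left out, turning to -0.0106 without empty vector library 2 and to -0.019 without Dnm3os library 2. Libraries share only a number between groups (correlation of deviations -0.06), and a replicate block left 2 replication genes lower (Pole and E2f1, Pcna not at adjusted p = 0.0616 by edgeR), 1 other replication factor higher and 1 p53 gene higher. The 95% intervals of the 37 genes, which rest on the spread between these libraries, reach at most a 1.18-fold change. The power to call smaller ones was not tested.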
